A study of Mus musculus with 24 samples.

Results

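The comparison described here is that of FoxO1 knockout with control gonadal fat in mice. It rests on 12 of the 24 RNA libraries of the series, 6 from knockout and 6 from control mice, which are those whose names end in e, read as the gonadal (epididymal) pad. The library names carry 6 mouse numbers with 2 libraries for each pad, so each pad was taken as the mean of its 2 libraries. The 3 knockout pads (mice M5, M9 and M12) were set against 3 control pads (M6, M7 and M10). The knockout mice lack FoxO1 conditionally in adipose tissue, and the controls carry floxed FoxO1. The promoter that drives the deletion, the strain, the age, the sex and the diet are not stated in the labels, which also do not say whether samples came from separate animals. P-values therefore measure the spread between the pads as the library names define them. Levels are given as FPKM (reads scaled to the length of the gene and to the total assigned to genes in the library), in the order M5, M9, M12 for knockout and M6, M7, M10 for control.

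FoxO1 is a forkhead transcription factor that sits at the end of the insulin pathway. Insulin activates the kinase AKT, which phosphorylates FoxO1 and moves it out of the nucleus, so that FoxO1 is most active in fasting. In liver it is known for switching on gluconeogenic genes, and in adipocytes it has been tied to lipolysis, autophagy and the control of adipogenesis.

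The pads carried markers of gonadal fat. The mesothelial regulator Wt1 was present in all 6 gonadal pads (29.2, 23.04 and 17.5 FPKM in knockout and 30.9, 28.5 and 18.3 in control), and the perilipin Plin1, which coats the lipid droplet, ranged from 321 to 559. They differed in transcripts of the male reproductive tract, which lies against this pad. The summed level of 31 epididymal, seminal vesicle and sperm genes was 8960.3 FPKM in knockout M12, 2955 in control M10 and 451 in control M6, but 9.77, 3.59 and 13.9 in M5, M9 and M7. These genes took up to 1.04% of the reads of a pad, and results are given with and without the pads above 100 FPKM where it matters, which leaves M5 and M9 against M7. The gonadal libraries held 17075037 to 25438811 reads assigned to genes. Across genes, r was 0.992 to 0.995 between the 2 libraries of each pad and 0.892 to 0.981 between mice of a genotype. Between mice of different genotypes it was 0.885 to 0.987, a range that includes the former.

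Foxo1, the targeted gene (ENSMUSG00000044167, mm10 chromosome 3, 52268337 to 52350109, plus strand), was at 4.07, 4.46 and 4.01 FPKM in the knockout pads and 13.6, 7.87 and 9.53 FPKM in the control pads. The knockout pads lay close together and all below the lowest control, M7, while the controls spread widely, with M6 highest. The log2 fold change was -1.18 (SE 0.19), with a limma adjusted p of 0.407 over all genes. An exact two-sided permutation test over the 6 pads gave p = 0.1, the smallest that 3 against 3 allow. The knockout pads kept 40.5% of the control level. A whole pad also holds blood vessels, immune cells and fibroblasts, and the source of the remaining Foxo1 reads was not tested. The relatives Foxo3 and Foxo4 overlapped between the genotypes (log2 fold changes -0.028 and -0.12, SE 0.14 and 0.13). The brain-enriched member Foxo6 was low but higher in every knockout pad, at 1.86, 1.59 and 1.69 against 1.34, 1.56 and 0.595 FPKM, with a log2 fold change of 0.46 (SE 0.26) and a limma adjusted p of 0.696.

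**Figure D1:**
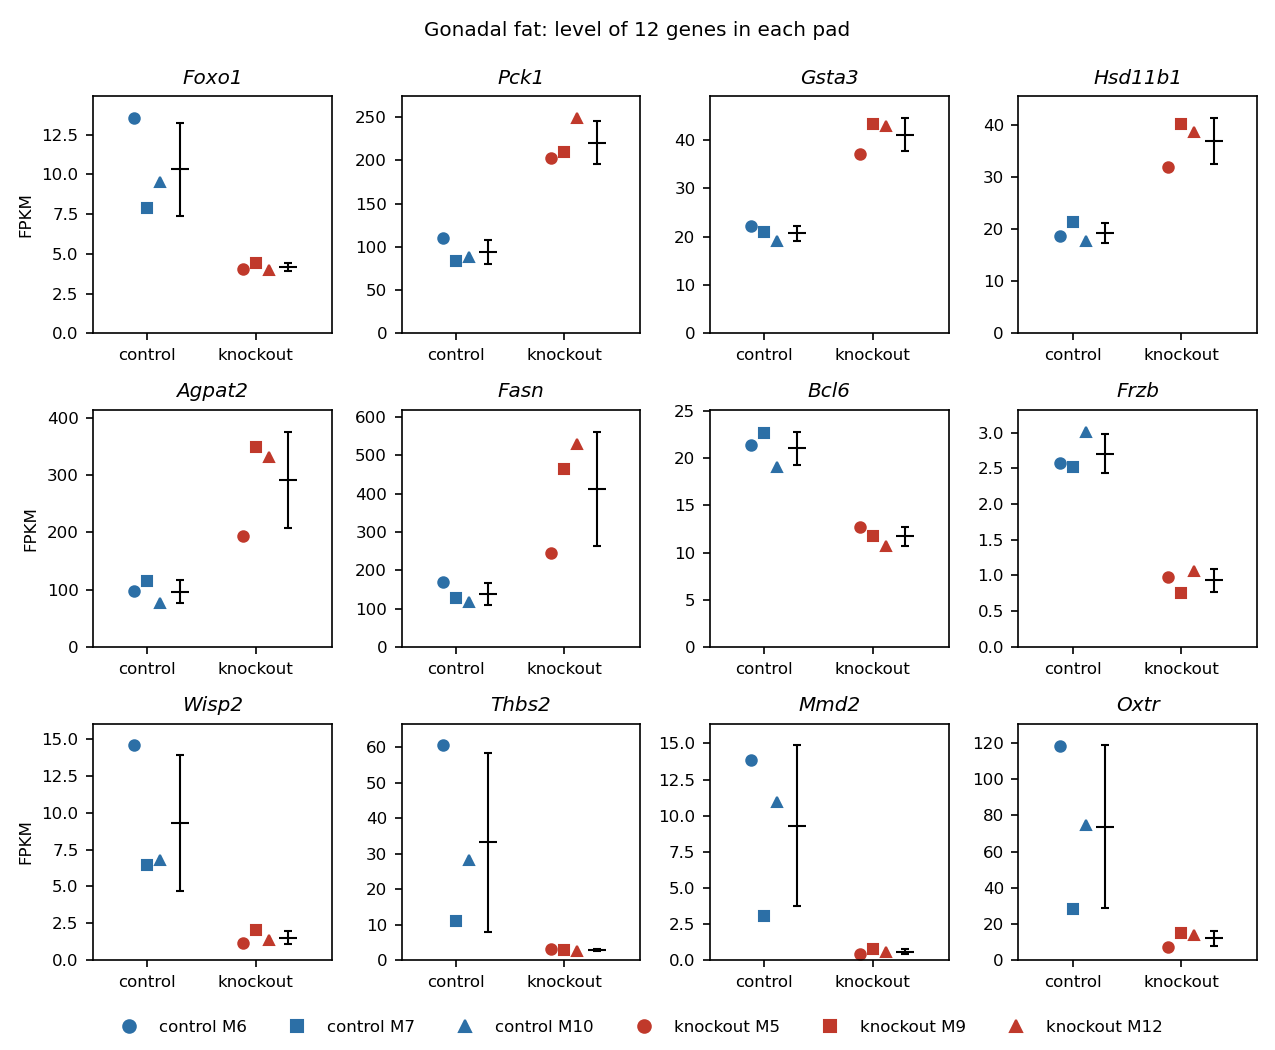
FPKM of 12 genes in each gonadal pad (points; blue control, red knockout), with the group mean and SD (n = 3) as a bar beside the points. The genotypes do not overlap for any of the 12 genes, while the controls M6, M7 and M10 spread widely for Wisp2, Thbs2, Mmd2 and Oxtr.

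The gene lists used here were chosen with earlier results of these data known, and those named first hold large shares of genes without overlap. Their shares are therefore not independent support. The knockout pads lay entirely above the controls in 11 of 22 genes of fatty acid synthesis, 12 of 22 of triglyceride assembly and 26 of 32 of the respiratory chain list. They lay entirely below them in 16 of 25 interferon-stimulated genes, 9 of 29 matrix genes and 7 of 8 red blood cell genes. No single gene passed the adjusted test. Of 14851 genes with a mean of at least 0.5 FPKM, limma called 0 at an adjusted p under 0.05 (0.0%), with 0.395 as the smallest adjusted p. At an unadjusted p under 0.05 it gave 1291 genes (8.69%), of which 653 were higher (4.4%) and 638 lower (4.3%). The 3 knockout pads lay entirely above the 3 control pads for 1009 genes (6.79%) and entirely below them for 1120 genes (7.54%), 14.3% in all. With FPKM rescaled by median-of-ratios factors these counts were 1159 higher and 939 lower, and those at an unadjusted p under 0.05 were 718 and 512. For genes without overlap the larger count thus lay on the other side after this rescaling. Log2 fold changes were above 0 for 44.2% of genes and below 0 for 55.8%, with a median of -0.025. Count models on whole reads rebuilt from the FPKM values gave different totals. EdgeR's quasi-likelihood test called 0 genes (0.0%), with 1291 at an unadjusted p under 0.05 (8.69%), whereas DESeq2 called 310 (2.14%), 203 genes higher (1.4%) and 107 lower (0.74%) of 14457 with an adjusted p. The authors' deposited table lists 990 genes as higher and 818 as lower in knockout gonadal fat. Of those, 934 (6.29% of the genes tested) and 783 (5.27%) were tested here. With the pad as the unit, 75.3% of the higher and 77.3% of the lower ones did not overlap between the genotypes. The authors' list was drawn from these same libraries, so these shares are not independent support for it. In the absence of a gene past the threshold, genes are described below by their values in each pad, their fold change with its SE, and whether the genotypes overlap. Counts without overlap in the lists below are to be read against the 6.79% higher and 7.54% lower of all genes.

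**Figure D2:**
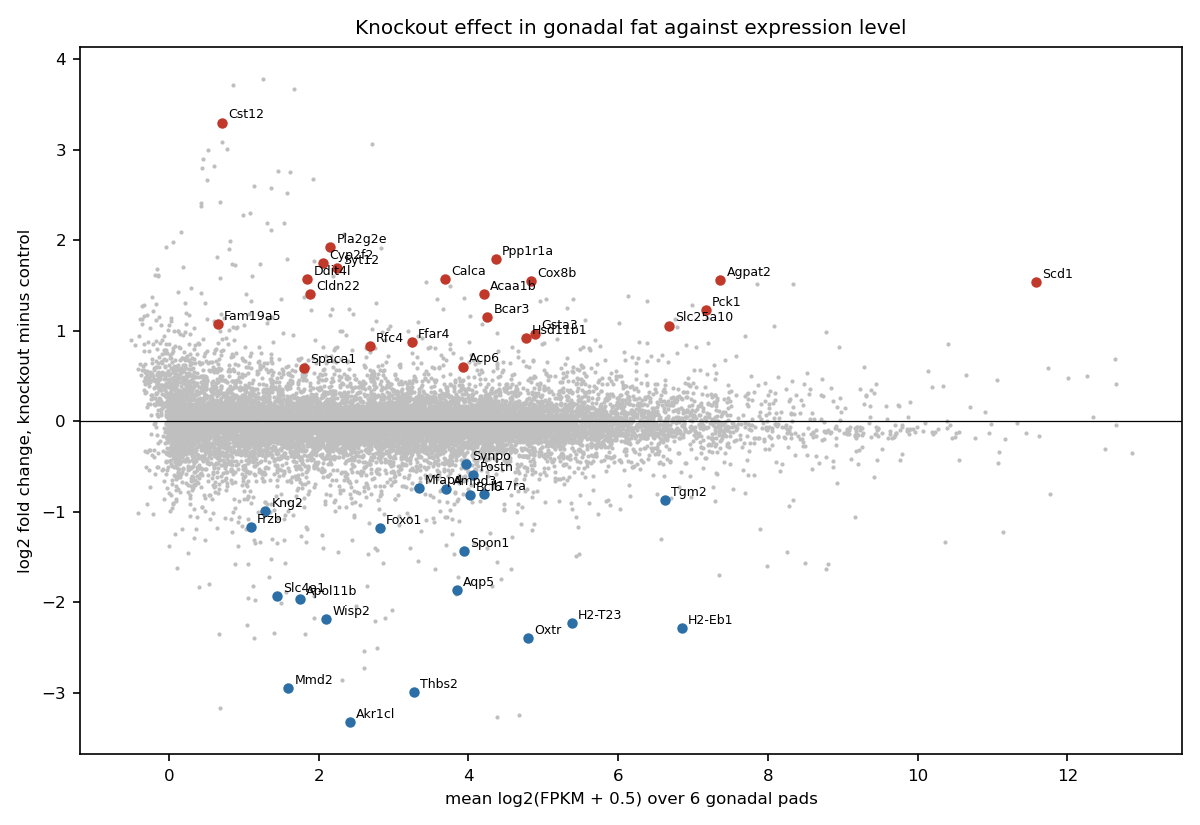
Log2 fold change (knockout minus control) against the mean log2(FPKM + 0.5) over the 6 gonadal pads, for 14851 genes (grey). Red and blue mark the named genes higher and lower in knockout: Scd1 combines a high level with a log2 fold change of 1.53, and Akr1cl, Thbs2 and Mmd2 have the lowest fold changes among the blue points.

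The 12 genes that were higher with the smallest p were headed by Gsta3, Rfc4 and Pck1. Gsta3 (mm10 chromosome 1, 21240589 to 21265661, plus strand), a glutathione S-transferase that also acts in steroid metabolism, was at 37.1, 43.2 and 42.9 FPKM in knockout and 22.1, 20.9 and 19.1 in control pads. Every knockout pad was well above every control, and the log2 fold change was 0.97 (SE 0.10, limma adjusted p = 0.395). Pck1 (mm10 chromosome 2, 173153048 to 173159273, plus strand), the cytosolic PEP carboxykinase that starts gluconeogenesis in liver and makes glycerol 3-phosphate for re-esterification in fat, was at 203, 209 and 249 FPKM against 110.0, 83.5 and 88.7, again without overlap. Its log2 fold change was 1.23 (SE 0.14, limma adjusted p = 0.395). Hsd11b1 (mm10 chromosome 1, 193221630 to 193264054, minus strand) encodes the enzyme that regenerates active glucocorticoid inside adipocytes. It stood at 32.1, 40.3 and 38.8 FPKM in knockout and 18.7, 21.5 and 17.7 in control pads, with a log2 fold change of 0.92 (SE 0.12, limma adjusted p = 0.406).

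The other genes of that group were higher in all 3 knockout pads as well. Slc25a10, which encodes the mitochondrial dicarboxylate carrier, was at 117, 159 and 169.8 FPKM against 72.4, 75.4 and 63.5. Ffar4, the long-chain fatty acid receptor of adipocytes also known as GPR120, was at 10.9, 13.6 and 12.5 against 6.96, 7.17 and 5.47. Acaa1b, a peroxisomal thiolase of fatty acid oxidation, was at 22.9, 35.5 and 31.7 against 12.4, 11.9 and 8.53. Knockout M5 was the lowest knockout pad for each of these 3 genes and still lay above the highest control. Rfc4, a subunit of the clamp loader of DNA replication, had a log2 fold change of 0.83 (SE 0.089), Bcar3, an adaptor of Src signalling, 1.15 (SE 0.15), and Acp6, a lysophosphatidic acid phosphatase, 0.60 (SE 0.084). The remaining 3 were the claudin gene Cldn22 (1.41, SE 0.17), Spaca1, known as a sperm acrosome gene (0.59, SE 0.085), and the secreted Fam19a5 (1.07, SE 0.15). Limma adjusted p was 0.395 for Rfc4, 0.395 for Cldn22, 0.406 for Bcar3 and 0.407 for each of the other 6 genes of these sentences. The strand setting of the counting is not given, so reads of a gene and an overlapping neighbour cannot be told apart.

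The 12 genes that were lower with the smallest p were headed by Bcl6 and Frzb. Bcl6 (mm10 chromosome 16, 23965052 to 23988852, minus strand), a transcriptional repressor known as a FoxO target in lymphocytes and as an opponent of STAT5, was at 12.7, 11.8 and 10.7 FPKM in knockout and 21.4, 22.6 and 19.1 in control pads. The genotypes were far apart relative to the spread within each, and the log2 fold change was -0.82 (SE 0.10, limma adjusted p = 0.395). Frzb (mm10 chromosome 2, 80411970 to 80447625, minus strand), a secreted Wnt antagonist, was at 0.974, 0.752 and 1.06 FPKM against 2.58, 2.52 and 3.02, with a log2 fold change of -1.17 (SE 0.14, limma adjusted p = 0.395). The next 2 genes described are on the matrix list. Mfap4, a microfibril protein, was at 7.07, 6.96 and 7.998 against 12.9, 11.4 and 13.4 FPKM. Postn, the matricellular protein periostin, was at 12.8, 13.5 and 13.005 against 19.8, 18.6 and 21.9. Both had knockout values within a narrow band below every control. Spon1, a secreted matrix protein (log2 fold change -1.43, SE 0.23), Wisp2, a CCN family matricellular protein (-2.18, SE 0.33), and Tgm2, the tissue transglutaminase that cross-links matrix (-0.87, SE 0.14), were lower without overlap too. The others were Ampd3, the AMP deaminase of erythroid and other cells (-0.75, SE 0.11), Synpo, an actin-associated protein (-0.47, SE 0.072), Il17ra, the interleukin 17 receptor (-0.80, SE 0.14), Kng2, a kininogen (-0.99, SE 0.17), and Foxo1 itself. From Mfap4 to Kng2 the limma adjusted p values were between 0.406 and 0.407.

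Promoters of these 24 genes were searched for the forkhead core GTAAACA (reverse strand TGTTTAC) in the RefSeq table of GRCm38.p6, from 250 bases before to 50 after the annotated start. The table held 23 promoters for 17 of the 24 genes. Among them 1, that of Hsd11b1, held the motif, and 1199 of all 32851 promoters in it (3.65%) held it. The insulin response core CAAAACA (reverse strand TGTTTTG), which shares bases with the forkhead core without containing it and was added to the search afterwards, stood in 2064 of 32851 promoters (6.28%) and in those of Gsta3 and Ampd3. The 250 bases before the start of Hsd11b1 (chr1:193242361-193242610, minus strand) and of Ampd3 (chr7:110773386-110773635, plus strand) are shown as the genes of either direction that hold a motif there, 5′ to 3′ on the strand of the gene, with the motif in capitals.
Hsd11b1: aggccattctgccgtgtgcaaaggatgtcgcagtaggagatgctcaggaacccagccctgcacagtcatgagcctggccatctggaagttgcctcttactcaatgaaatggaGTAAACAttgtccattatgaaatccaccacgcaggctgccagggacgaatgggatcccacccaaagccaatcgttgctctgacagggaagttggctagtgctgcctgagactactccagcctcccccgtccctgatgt
Ampd3: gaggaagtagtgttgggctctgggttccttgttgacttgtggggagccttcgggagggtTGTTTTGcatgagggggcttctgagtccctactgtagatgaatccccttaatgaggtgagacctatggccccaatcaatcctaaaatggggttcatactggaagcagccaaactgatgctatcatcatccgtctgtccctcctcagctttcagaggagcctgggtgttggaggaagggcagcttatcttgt
The first base of the motif lies 138 bases before this annotated start of Hsd11b1, which was higher in knockout. In Ampd3, which was lower, it lies 191 bases before the annotated start. The start of Hsd11b1 used here lies within the gene span given above, and which start is used in fat was not tested. A match of these letters is a description of the sequence and does not show binding.

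Enzymes of fatty acid synthesis had higher levels in knockout gonadal fat along most of the pathway. Of the 22 tested genes of de novo lipogenesis, 17 had a log2 fold change above 0, 11 were higher without overlap and 1, G6pdx, was lower without overlap. The median was 0.62, against -0.025 over all genes. Citrate leaves the mitochondrion through Slc25a1, which was at 155, 261 and 250.2 FPKM in knockout and 112, 110.2 and 76.1 in control pads. Acaca, the acetyl-CoA carboxylase, was at 30.4, 46.95 and 56.01 against 28.1, 21.1 and 21.7, and Fasn, the fatty acid synthase, at 245, 464 and 529.9 against 169.9, 127 and 118. In each case M9 and M12 were well above the controls, and M5 lay between. Me1, the malic enzyme that supplies NADPH, was at 72.4, 141 and 142 against 51.1, 40.1 and 38.5 FPKM. Scd1, the stearoyl-CoA desaturase and the most abundant of the list, was at 3312, 7024 and 6057 against 1861, 2182 and 1426 FPKM (log2 fold change 1.53, SE 0.34, limma adjusted p = 0.421).

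Acly, the citrate lyase gene, and the elongase gene Elovl6 shared the pattern only in part. Acly was at 74.8, 120.0 and 176 FPKM in knockout and 78.7, 66.5 and 72.9 in control pads, and Elovl6 was at 4.80, 9.74 and 18.7 against 4.74, 4.11 and 5.02. M5 lay within the control range for both, and M12 was far above it. The lipogenic regulators were less far apart. Srebf1 was at 68.1, 106 and 105 against 62.98, 65.5 and 57.3 FPKM (log2 fold change 0.56, SE 0.19), and Mlxipl, which encodes the carbohydrate sensor ChREBP, at 9.53, 12.9 and 13.1 against 10.9, 9.79 and 10.8, where the genotypes overlapped. Thrsp, a lipogenic cofactor, was at 302, 786 and 677 against 252, 189 and 144 (log2 fold change 1.52, SE 0.41). The oxidative pentose phosphate genes did not follow, with G6pdx at 51.4, 54.4 and 55.97 against 77.1, 59.1 and 64.5 FPKM and Pgd overlapping (0.063, SE 0.15), and neither did the polyunsaturated desaturase Fads1 (-0.28, SE 0.31). Without M12 the median of the list was 0.44, and in the pads low in male tract transcripts it was 0.50.

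Triglyceride assembly had the same direction. Of 22 tested genes, 17 were above 0 and 12 were higher without overlap, with Agpat1 the 1 gene lower without overlap and a median of 0.38. Agpat2 (mm10 chromosome 2, 26593057 to 26604417, minus strand), the acyltransferase lost in a congenital lipodystrophy, was at 194, 348 and 332 FPKM in knockout and 97.7, 116 and 76.6 in control pads (log2 fold change 1.56, SE 0.27, limma adjusted p = 0.407). Its relative Agpat1 was at 32.1, 31.8 and 34.4 against 38.8, 38.9 and 41.2. Agpat2 thus stood higher in all knockout pads and Agpat1 lower in all of them. The glycerol phosphate acyltransferase GPAT3 (listed as Agpat9) was at 22.4, 34.4 and 30.9 against 15.4, 16.03 and 12.2 FPKM, and Gpd1, which makes glycerol 3-phosphate from glycolysis, at 87.5, 158 and 163 against 51.4, 62.1 and 44.4. The acyltransferases of the last step, Dgat1 and Dgat2, were at 76.9, 96.3 and 85.1 against 54.7, 55.7 and 50.1 and at 411, 828 and 697 against 372, 295 and 277. Mogat1, of the monoacylglycerol route, was at 8.16, 13.8 and 9.91 against 5.32, 5.03 and 4.25, with every knockout pad above every control.

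Genes that break triglyceride down or coat the droplet had higher levels too. Of 16 tested genes 14 were above 0, 8 were higher without overlap and 0 lower, with a median of 0.39. Pnpla2, the adipose triglyceride lipase ATGL and a known FoxO1 target in adipocytes, was at 323, 355 and 349 FPKM in knockout and 281, 269 and 252 in control pads. Lipe, the hormone-sensitive lipase, was at 160.3, 223 and 199 against 138, 115 and 122, and Abhd5, the activator of ATGL, at 27.7, 28.7 and 26.9 against 19.996, 23.8 and 21.8. The 3 genes of the lipolytic step were thus each higher in all knockout pads, with log2 fold changes of 0.36, 0.63 and 0.34 (SE 0.091, 0.15 and 0.085). The inhibitor of ATGL, G0s2, overlapped (0.30, SE 0.22). Cidec, which fuses droplets, was at 586, 990.4 and 779 against 540.4, 507 and 479, while the perilipin Plin2 overlapped (0.29, SE 0.30). Of the receptors that control lipolysis, Adrb3 was at 56.1, 88.2 and 72.6 against 36.3, 48.97 and 49.2 FPKM. This β3 adrenergic receptor gene was therefore higher in every knockout pad, with a log2 fold change of 0.67 (SE 0.20). Pde3b, through which insulin restrains lipolysis, was higher (0.43, SE 0.10, limma adjusted p = 0.421), and the lactate receptor gene Hcar1 lower without overlap (-0.13, SE 0.068).

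Uptake of fatty acid from blood was divided. Lpl, the lipoprotein lipase, was at 1496, 2058 and 1969.8 FPKM in knockout and 1030.3, 1052 and 954 in control pads, and its inhibitor Angptl4 was at 81.6, 60.9 and 55.1 against 87.7, 87.6 and 108. Lpl was higher and Angptl4 lower in every knockout pad. Among the acyl-CoA synthetases Acsl1 was higher (1.04, SE 0.19) and Acsl5 lower (-0.36, SE 0.10), both without overlap. The list as a whole had 4 of 19 genes higher (21.1%, against 6.79% of all genes) and 2 lower (10.5%, against 7.54%) without overlap. Its median was 0.18, which was 0.079 without M7.

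Genes of pyruvate entry into the mitochondrion and of the citrate cycle had higher levels in knockout pads. Of 37 tested genes of glucose use and the citrate cycle, 16 were higher and 0 lower without overlap, with a median of 0.20. The pyruvate carrier genes Mpc1 and Mpc2 were at 6.61, 8.05 and 9.63 against 3.93, 3.95 and 5.34 and at 47.1, 70.98 and 67.6 against 35.5, 34.1 and 32.9 FPKM. Pcx, the pyruvate carboxylase that fills up oxaloacetate, was at 149.7, 219 and 239 against 120.3, 107 and 99.8. All knockout pads were above all controls for these genes and for the pyruvate dehydrogenase subunits Pdhb (0.73, SE 0.16) and Dlat (0.67, SE 0.15). Slc2a4, which encodes the insulin-regulated glucose transporter GLUT4, was at 33.6, 43.9 and 40.6 against 32.4, 24.1 and 24.7 FPKM (log2 fold change 0.54, SE 0.15).

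Respiratory chain genes on the list differed little each but in 1 direction. All 32 listed subunits of oxidative phosphorylation were above 0 and 26 were higher without overlap, with a median of 0.26. The list does not hold every subunit. Among ATP synthase genes outside it, Atp5g1 (-0.0495) and Atp5g2 (-0.0147) were below 0, and Atp5e (0.0736), Atp5h (0.0646) and Atp5k (0.0487) were slightly above it. Uqcrq of complex III was at 148, 185 and 164 FPKM against 102, 126 and 107, the largest log2 fold change among the 4 subunits with the smallest p (0.57, SE 0.13). Cyc1, the cytochrome c1 of the same complex, had 0.42 (SE 0.091), Uqcrfs1 0.41 (SE 0.10) and Uqcrc1 0.31 (SE 0.073), so the 4 came from 1 complex. Fatty acid oxidation genes were above 0 in 23 of 23 cases with 14 higher without overlap (median 0.28). Acads, the short-chain acyl-CoA dehydrogenase, was at 51.02, 62.9 and 53.6 against 39.01, 39.4 and 36.3 FPKM, and Cpt2, of the carnitine shuttle, at 29.4, 38.2 and 34.8 against 21.6, 23.4 and 21.9. Branched-chain amino acid breakdown had 21 of 22 genes above 0 and 9 higher without overlap (median 0.32), with the aminotransferase Bcat2 at 71.6, 85.3 and 71.1 against 48.1, 56.4 and 49.7 FPKM. In the machinery of mitochondrial shape, 2 of 15 genes were higher without overlap (13.3%, against 6.79% of all genes). These were the fission receptor Mff (0.11, SE 0.068) and the crista protein Immt (0.27, SE 0.10). The protease gene Yme1l1 (-0.12, SE 0.069) was lower (6.67%, against 7.54%), and the median was 0.084. In limma 1 of the 15 genes had an unadjusted p under 0.05.

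Most thermogenic genes had low levels. Of the 19 genes listed 11 passed the level of 0.5 FPKM, and 2 of these were higher without overlap (18.2%, against 6.79% of all genes). Cox8b, a subunit of cytochrome oxidase enriched in brown fat and muscle, was at 29.999, 68.4 and 54.8 FPKM against 10.1, 21.9 and 19.04, and Cidea at 1.21, 2.27 and 1.52 against 0.725, 0.695 and 0.590. The uncoupling protein gene Ucp1, which defines brown and beige adipocytes, was at 0.0439, 0.0288 and 0.0313 FPKM against 0.0960, 0.0417 and 0, under the level for testing. The regulator Prdm16 was at 0.492, 0.808 and 1.11 against 0.923, 0.595 and 0.852, where the genotypes overlapped.

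The markers of adipocytes themselves were in part higher beside these metabolic genes. Of 24 tested markers, 12 were higher and 2 lower without overlap, with a median of 0.37. In whole pads a larger share of adipocytes and more RNA of these genes per adipocyte cannot be told apart, and the same holds for fewer cells of a type and less RNA per cell in the cell types that follow. The part of the adipocyte share in the metabolic values was not tested. The summed level of the adipocyte markers overlapped between the genotypes, from 14824 to 21004 FPKM in knockout and 12953 to 16029 in control pads. Adipoq, which encodes adiponectin, was at 665, 1033 and 779.6 against 942, 601 and 661 FPKM, and Lep, which encodes leptin, at 109, 250.1 and 166 against 228, 106 and 122. Neither separated the genotypes. Retn, which encodes resistin, was at 491, 842 and 681 against 407, 416 and 304, and Rbp4, the retinol carrier, at 139, 263 and 211 against 101, 97.2 and 53.3, all knockout pads being higher. The abundant markers did not share a direction. Fabp4, the fatty acid binding protein, was higher without overlap (0.69, SE 0.22), and Cfd, the complement protease adipsin, was at 2685, 3307 and 2072 against 5664, 3623 and 4723 and so lower in every knockout pad. The imprinted proteolipid gene Nnat was at 178, 169.8 and 102 against 744, 252 and 459 FPKM (log2 fold change -1.60, SE 0.43). In the pads low in male tract transcripts the log2 fold change of Nnat was -0.54. Of 12 adipokine genes 4 were higher without overlap (33.3%, against 6.79% of all genes), among them the growth factors Nrg4 (0.95, SE 0.20) and Vegfa (0.42, SE 0.12). A further 2 were lower (16.7%, against 7.54%).

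The insulin pathway itself held few separated genes. Of 28 tested components, 1 was higher and 0 lower without overlap, and the median was 0.017. That gene was Eif4ebp1, the translational repressor 4E-BP1 that also counts as a FoxO target, at 166, 191 and 163 FPKM against 137, 148 and 137. The substrate gene Irs2 was at 4.03, 4.19 and 5.75 against 6.54, 3.63 and 5.73 and the insulin receptor gene Insr at 6.95, 8.14 and 9.19 against 8.95, 6.38 and 8.54, both overlapping.

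Genes known as FoxO targets elsewhere were divided between the directions. Of 30 such genes 29 were tested (the muscle ligase gene Trim63 was below the level). Without overlap 8 were higher (27.6%, against 6.79% of all genes) and 2 lower (6.90%, against 7.54%), and the median was -0.044. Besides Pck1, Pnpla2 and Eif4ebp1, the 8 held Klf15, a regulator of amino acid and glucose metabolism (0.42, SE 0.14), the antioxidant Cat (0.30, SE 0.11), the apoptosis gene Bbc3 (0.41, SE 0.16), the cyclin G2 gene Ccng2 (0.20, SE 0.082) and the mitophagy receptor Bnip3 (0.12, SE 0.083). The 2 lower genes were Bcl6 and the autophagosome gene Map1lc3b, at 55.9, 53.5 and 48.8 FPKM against 63.9, 57.4 and 57.7. Pdk4, which blocks pyruvate dehydrogenase in fasting, was at 7.26, 5.60 and 5.58 against 12.7, 5.83 and 10.2, and Txnip, which limits glucose uptake, at 142, 123 and 126 against 256, 129 and 222. For both, M6 and M10 were above the knockout pads but M7 was within their range. The arrest gene Cdkn1a (-0.044, SE 0.19), the apoptosis gene Bcl2l11 (-0.049, SE 0.093) and the sestrin gene Sesn3 (0.024, SE 0.21) overlapped. Of 23 autophagy and lysosome genes, the kinase gene Ulk1 (0.13, SE 0.077), the conjugation gene Atg12 (0.089, SE 0.064) and Bnip3 were higher without overlap. Map1lc3b and its relative Gabarapl2 (-0.10, SE 0.070) were lower, and the median was -0.047. The shares of this list were 13.0% higher and 8.70% lower, against 6.79% and 7.54% of all genes. In limma 0 of the 23 genes had an unadjusted p under 0.05.

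**Figure D3:**
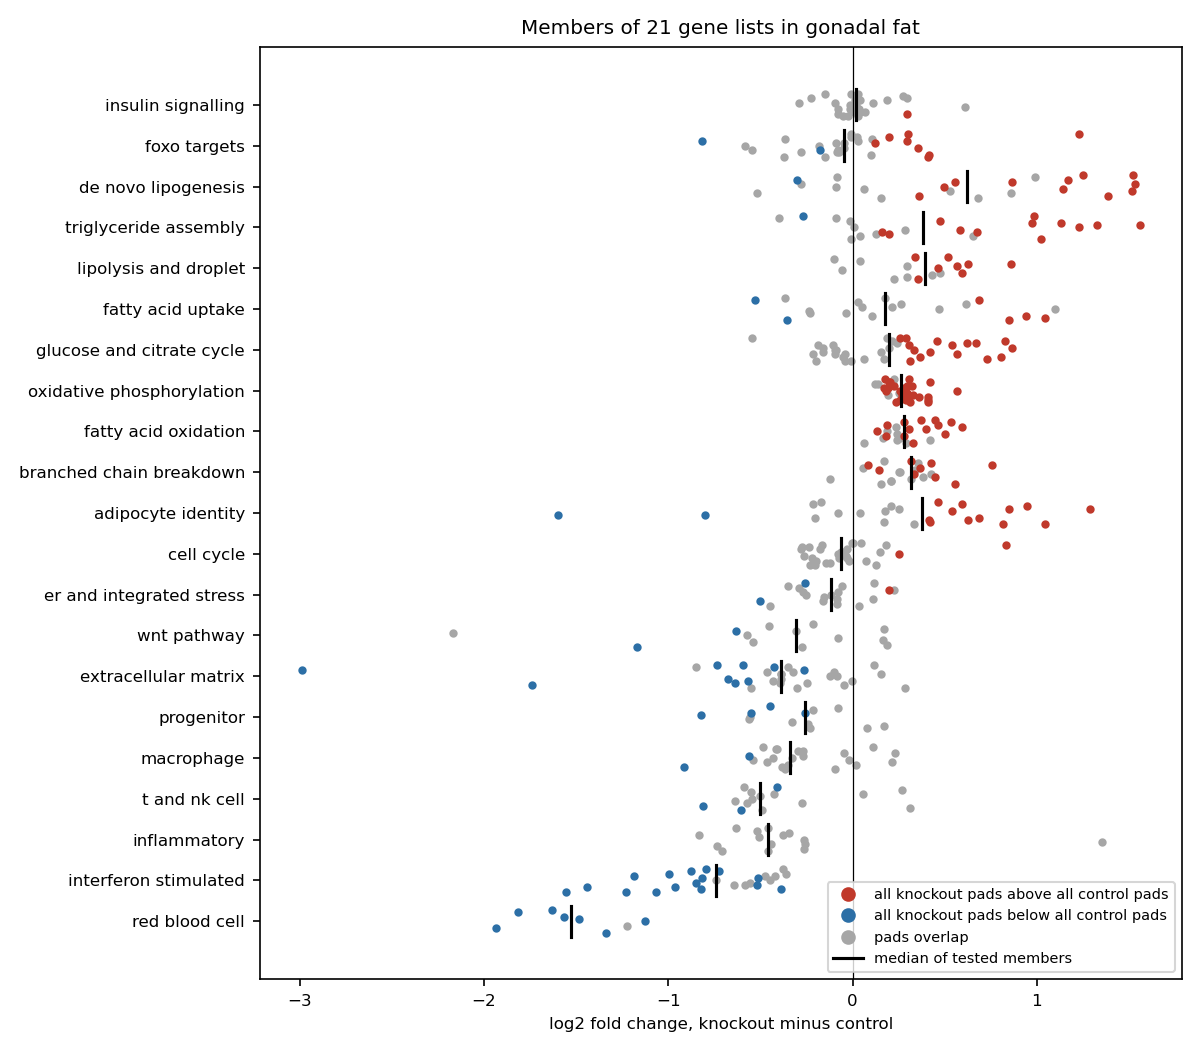
Log2 fold changes (knockout minus control) of the tested members of 21 gene lists in gonadal fat. Each point is a gene, coloured by whether the 3 knockout pads lay entirely above (red) or below (blue) the 3 control pads, and the black bar is the median, from 0.62 for de novo lipogenesis to -1.52 for red blood cell genes.

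Structural genes of connective tissue had lower levels in knockout gonadal fat. Of 29 tested extracellular matrix genes, 26 were below 0 and 9 were lower without overlap, with 0 higher and a median of -0.39. Without M12 the median was -0.24, with 7 of 29 genes above 0. Thrombospondins were far apart. Thbs2 (mm10 chromosome 17, 14665500 to 14694262, minus strand) was at 3.17, 2.99 and 2.66 FPKM in knockout and 60.6, 10.97 and 28.3 in control pads, and Thbs1 at 16.8, 9.76 and 8.78 against 57.2, 23.1 and 44.8. The knockout pads were low, and the controls ran from M7 through M10 to M6, over a range wider than the gap between the genotypes. Thbs2 had a log2 fold change of -2.99 (SE 0.58) and Thbs1 one of -1.74 (SE 0.39), and the limma adjusted p was 0.421 for either. Biglycan (Bgn) was at 154, 131 and 108 against 203, 186 and 189 FPKM and the fibrillin gene Fbn1 at 13.1, 11.8 and 10.5 against 17.5, 14.5 and 16.1. Collagen genes were closer, as in Col6a3 (-0.27, SE 0.093). Of 13 Wnt pathway genes, the secreted antagonists Frzb and Sfrp1 were lower (15.4%, against 7.54% of all genes) and 0 higher without overlap. Sfrp1 was at 8.90, 11.1 and 7.72 against 15.1, 13.2 and 15.2 FPKM, whereas Sfrp5, which is made by adipocytes, was at 2.36, 4.19 and 2.68 against 62.4, 3.16 and 16.4 and thus high only in controls M6 and M10.

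Progenitor markers were in part lower beside the matrix genes. Of 13 tested, Ly6a, Pi16 (-0.45, SE 0.18), Cxcl12 (-0.55, SE 0.23) and Pdgfrb (-0.26, SE 0.11) were lower without overlap (30.8%, against 7.54% of all genes). None was higher without overlap, and the median was -0.26. Without M10 the median was -0.41, and in the pads low in male tract transcripts -0.15. Ly6a, which encodes the stem cell antigen Sca-1, was at 49.96, 63.7 and 46.7 FPKM against 155, 68.3 and 78.8, and Pdgfra, the general marker of these cells, overlapped (-0.23, SE 0.18). Their part in the matrix result was not tested. Mesothelial genes had 0 of 11 without overlap, skeletal muscle genes 0 of 7 and Schwann cell genes 0 of 3. Of 15 endothelial and mural genes 2 were lower without overlap (13.3%, against 7.54% of all genes), and the median was -0.18. In the pads low in male tract transcripts it was 0.11, with 10 of 15 genes above 0. The 2 are contractile genes of smooth muscle. Actin, Acta2, was at 39.04, 29.3 and 43.2 against 122, 62.03 and 56.2 FPKM and Tagln at 32.1, 31.7 and 43.7 against 112, 50.3 and 51.6, while the endothelial gene Pecam1 (-0.23, SE 0.22) and the pericyte gene Cspg4 (0.34, SE 0.15) overlapped.

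Interferon-stimulated genes had lower levels in knockout pads, with control M6 far above the rest. All 25 tested genes were below 0 and 16 were lower without overlap, with a median of -0.74. Isg15, a ubiquitin-like antiviral protein, was at 15.6, 10.9 and 9.29 FPKM in knockout and 68.8, 21.8 and 29.1 in control pads, and Rsad2, which encodes viperin, at 2.48, 2.42 and 2.29 against 14.6, 3.44 and 7.62. M6 had more than any other pad of both genes, and the knockout pads were below M7, the lowest control. Without M6 the median of the list was -0.41, and in the pads low in male tract transcripts it was -0.28. The summed level of the list was 554 to 851 FPKM in knockout pads and 809 to 1690.5 in controls, so the sums overlapped.

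Immune cell markers were less clearly separated. Of 22 macrophage genes 2 were lower and 0 higher without overlap (median -0.34), near the 7.54% of all genes. Without M12 the median was -0.17 and without M5 -0.51. The general marker F4/80 (listed as Emr1) was at 51.9, 36.1 and 34.99 FPKM against 53.2, 54.6 and 48.8, and, of the 2, Timd4 of resident macrophages was at 1.61, 2.19 and 1.99 against 5.83, 3.76 and 2.99. M5 resembled the controls for Emr1, but for Timd4 all knockout pads were low. The other was the Fc receptor gene Fcgr1 (-0.56, SE 0.21). Of 15 T and NK cell genes 3 were lower without overlap (20%, against 7.54% of all genes), Cd3e, Cd4 and Cd8b1, and the other 12 overlapped. The median was -0.50, which became -0.29 without M6 and -0.054 in the pads low in male tract transcripts. Cd3e was at 1.80, 2.60 and 1.98 against 4.18, 3.07 and 3.22 FPKM. Of 12 neutrophil and mast cell genes 1, the protease gene Prtn3 (-1.82, SE 0.35), was lower without overlap (8.33%, near the 7.54% of all genes). For 11 B cell genes and 15 inflammatory genes the count without overlap was 0 in both directions, and the medians were -0.17 and -0.46. The chemokine Ccl2 was at 42.9, 29.97 and 18.8 against 33.6, 70.2 and 38.9 FPKM and the cytokine Il1b at 25.9, 34.9 and 10.3 against 18.2, 64.3 and 46.5, with M12 lowest in both. With a mouse left out, the inflammatory median ran from -0.75 (without M6) to -0.12 (without M12).

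Red blood cell transcripts had lower levels in knockout pads. All 8 tested genes were below 0 and 7 were lower without overlap, with a median of -1.52. Hba-a1 was at 501, 1156 and 986 FPKM in knockout and 4249.9, 1309.7 and 1654 in control pads, Alas2, of haem synthesis, at 15.1, 35.6 and 30.6 against 144, 40.8 and 63.6, and the anion exchanger Slc4a1 at 0.674, 1.21 and 0.827 against 9.87, 2.11 and 4.996. M6 was highest and M5 lowest for all 3 genes, and M7 came close to M9 for Hba-a1 and Alas2. The haemoglobin genes have near-identical copies, between which the counting may split reads. The summed level of the list was 1624 to 4202 FPKM in knockout and 4248 to 13653 in control pads, and the part of residual blood in the immune and interferon values was not tested. Without M6 the median was -1.04, and in the pads low in male tract transcripts -0.84.

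**Figure D4:**
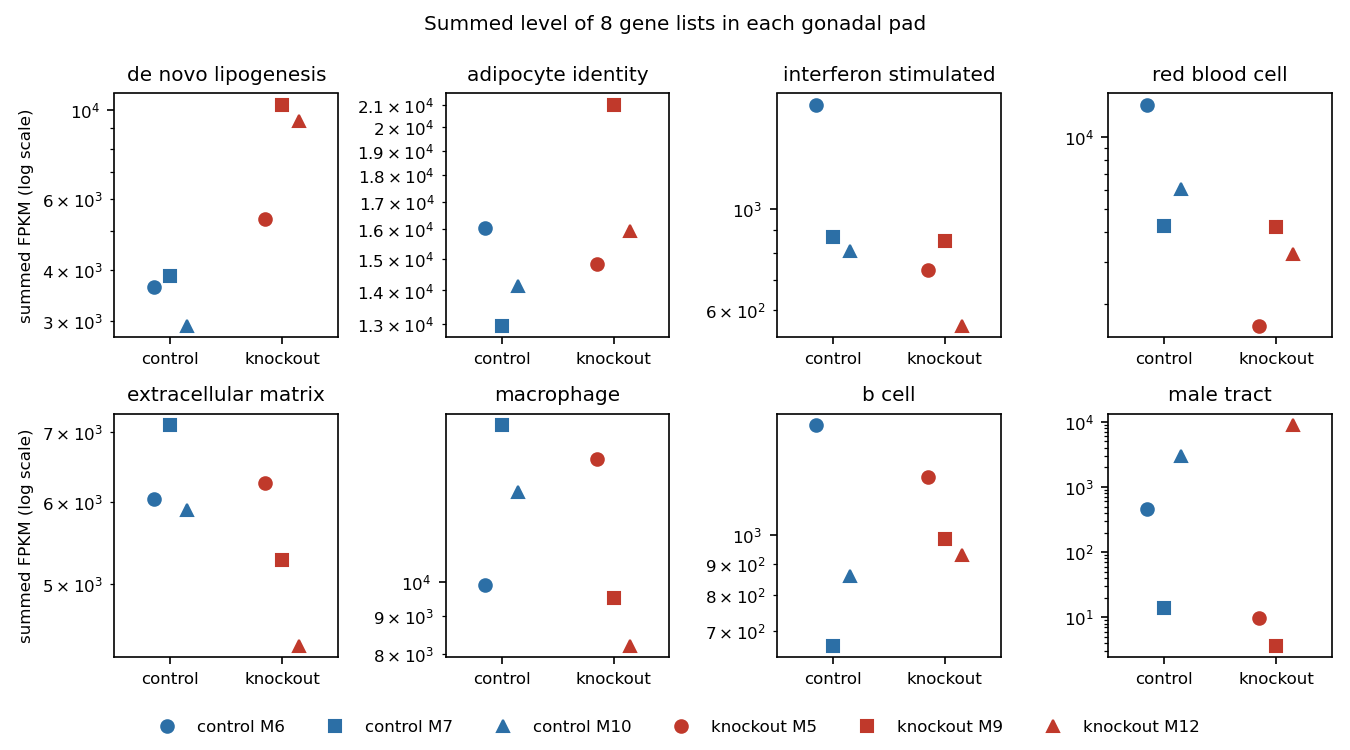
Summed FPKM of 8 gene lists in each gonadal pad (log scale; blue control, red knockout; marker shape gives the mouse). M6 is highest for interferon-stimulated, red blood cell and B cell genes, and the male tract list runs from 3.59 FPKM in M9 to 8960.3 in M12.

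Several genes with the largest differences lie outside these lists. Akr1cl, an aldo-keto reductase, was at 0.562, 0.987 and 2.54 FPKM in knockout and 33.7, 4.63 and 26.7 in control pads (log2 fold change -3.32, SE 0.80, limma adjusted p = 0.428). Mmd2 (mm10 chromosome 5, 142562365 to 142608800, minus strand), which encodes a progestin and adipoQ receptor, was at 0.435, 0.757 and 0.594 against 13.9, 3.10 and 10.95, and Oxtr (mm10 chromosome 6, 112473684 to 112489808, minus strand), the oxytocin receptor, at 7.61, 14.998 and 13.8 against 119, 28.5 and 74.5. All had M6 highest, M10 next and M7 nearest to the knockout pads. Mmd2 had a log2 fold change of -2.95 (SE 0.52) and Oxtr one of -2.39 (SE 0.55), and the limma adjusted p values were 0.407 and 0.421. Aqp5, a water channel of glands, was at 8.98, 6.72 and 5.73 against 68.6, 9.69 and 28.9, and the apolipoprotein L gene Apol11b at 1.46, 1.12 and 1.06 against 12.3, 3.27 and 5.52. In the pads low in male tract transcripts the log2 fold changes were -2.03 for Akr1cl, -1.68 for Thbs2, -1.73 for Mmd2, -1.37 for Oxtr and -0.30 for Aqp5, which compares them with M7 alone. Over the 1120 genes lower without overlap, M7 was the control nearest to the knockout pads in 46.4% and M5 the knockout pad nearest to the controls in 55.3%. For the 1009 genes higher without overlap M5 was the nearest knockout pad in 62.7%.

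Among the largest positive fold changes were Pla2g2e, a secreted phospholipase of adipocytes, at 4.72, 11.7 and 9.79 FPKM against 1.85, 2.73 and 1.08, and Ppp1r1a, a protein phosphatase inhibitor, at 27.7, 45.98 and 42.2 against 9.46, 14.8 and 8.34. Syt12, a synaptotagmin, was at 4.60, 9.90 and 11.3 against 1.95, 2.44 and 2.06, with M5 between the other knockout pads and the controls in all 3 genes. Cyp2f2, a cytochrome P450, was at 9.60, 6.73 and 5.53 against 0.745, 4.62 and 1.33. Calca, which encodes calcitonin and the neuropeptide CGRP, was at 42.4, 18.7 and 12.9 against 5.14, 10.5 and 6.21. For Cyp2f2 and Calca M5 was instead the highest pad. Cst12 and Ddit4l were high in M12 alone, the pad richest in male tract transcripts. Cst12, a cystatin, was at 0.0802, 0.0955 and 394 against 0.0305, 0 and 0.0390 FPKM, and Ddit4l, an inhibitor of mTOR, at 2.68, 2.30 and 26.1 against 1.29, 1.60 and 1.91. Without M12 the log2 fold change of Ddit4l was 0.52, and the level of Cst12 in M5 and M9 was under 0.1 FPKM.

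The class II gene H2-Eb1 and the class I gene H2-T23 were lower in every knockout pad, with M12 far below the rest. H2-Eb1 was at 127, 126 and 8.35 FPKM in knockout and 279.8, 234 and 249 in control pads, and H2-T23 at 48.4, 37.3 and 3.33 against 89.6, 93.1 and 85.9. M5 and M9 lay between M12 and the controls. Without M12 the log2 fold changes were -1.001 and -1.06, against -2.28 (SE 1.05) and -2.23 (SE 0.96) with it. In the inguinal pads of the same mice H2-Eb1 was again lowest in M12 (128, 54.3 and 14.9 against 283, 155 and 350.5 FPKM). The class II chaperone Cd74 was at 634, 624 and 559 against 1466, 599 and 616 FPKM, and the class I light chain gene B2m was at 1302, 1363 and 1227 against 2433, 1429 and 1511. M12 was close to M5 and M9 for both of these genes, which were chosen after their values were seen. Reads of the class I and class II genes can be divided among similar copies, and the part of this in the result was not tested.

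Hormone, clock and stress programmes gave few separated genes, at shares to be read against the 6.79% higher and 7.54% lower of all genes. Of 15 glucocorticoid-regulated genes, Hsd11b1 was higher and the metallothionein Mt2 (139, 106 and 102 FPKM against 165, 258 and 223) and Angptl4 were lower without overlap. In the growth hormone and STAT5 list of 12 genes, Bcl6 and Socs2 were lower and Stat5a (0.13, SE 0.074) and Igfals higher without overlap. Socs2, the feedback inhibitor of growth hormone signalling, was at 3.01, 2.68 and 2.60 against 3.76, 3.63 and 3.96. Both are known as responders to STAT5, Bcl6 as a repressed and Socs2 as an induced gene. Igfals, the acid-labile subunit of the IGF complex, was at 11.6, 25.1 and 17.5 against 10.3, 10.01 and 8.93. Clock genes differed modestly, with Ciart at 1.43, 1.29 and 1.44 FPKM against 0.705, 0.904 and 0.971. The repressor gene Per3 was at 5.51, 6.45 and 7.51 against 4.93, 4.11 and 5.11, and the output gene Dbp at 25.6, 26.5 and 31.6 against 24.5, 18.5 and 21.8. These 3 were higher without overlap and the activator gene Arntl lower (-0.13, SE 0.090), of 19 clock genes. Among 18 immediate early genes 2 were lower without overlap, Egr3 (-0.66, SE 0.14) and Nr4a3 (-0.47, SE 0.16). In the endoplasmic reticulum stress list the chaperone gene Pdia4 (-0.50, SE 0.13) and the phosphatase subunit gene Ppp1r15a (-0.26, SE 0.089) were lower and the stress factor gene Ddit3 (0.20, SE 0.077) higher without overlap, of 19 genes. Of 29 cell cycle genes, Rfc4 and Ccne2 were higher and 0 lower without overlap, and the proliferation marker Mki67 overlapped (3.77, 2.88 and 2.45 against 3.05, 4.14 and 3.67 FPKM).

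Glutathione and antioxidant genes and sterol genes each held a few separated members. The shares are to be read against the 6.79% higher and 7.54% lower of all genes. Of 33 glutathione and antioxidant genes, 6 were higher (18.2%) and 1 lower (3.03%) without overlap, with a median of -0.072. The lower one was the epoxide hydrolase gene Ephx1 (-0.37, SE 0.19). Gstz1, which also acts in tyrosine breakdown, was at 170.4, 271 and 220.3 FPKM against 154, 135 and 119. The secreted peroxidase Gpx3 was at 168, 249 and 408 against 1042, 354 and 1228, with M6 and M10 far above and M7 within the knockout range. Of 22 cholesterol synthesis and uptake genes, Hmgcs1 (48.8, 70.9 and 65.2 against 43.2, 46.6 and 32.2 FPKM) and Pmvk were higher without overlap and Stard4 lower. These sterol shares were 9.09% higher and 4.55% lower, near those of all genes.

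The inguinal pads of the same 6 mice allow the knockout effect to be set beside that in subcutaneous fat, and the difference between the pads was tested within mice. Limma on that difference called 0 of 14851 genes at an adjusted p under 0.05 (0.0%), the smallest adjusted p being 0.499. At an unadjusted p under 0.05 it gave 734 genes with a more positive effect in gonadal fat (4.94%) and 120 with a more negative one (0.808%). The median difference over all genes tested was 0.086, and the part of scaling in this balance was not tested. Lpl had a log2 fold change of 0.85 (SE 0.17) in gonadal and 0.075 (SE 0.25) in inguinal pads, with a difference of 0.78 (SE 0.20, limma adjusted p = 0.751). Pck1 had 1.23 in gonadal and 0.24 (SE 0.26) in inguinal pads, a difference of 0.99 (SE 0.34, limma adjusted p = 0.818). Frzb and Wisp2 had inguinal values of -0.036 (SE 0.069) and -0.36 (SE 0.59) against gonadal values of -1.17 and -2.18. In the opposite order, Spon1 was at -1.43 in gonadal and -2.66 (SE 0.30) in inguinal pads, Akr1cl at -3.32 and -5.72 (SE 0.63), and Bcl6 at -0.82 and -1.87 (SE 0.42). Scd1 was at 1.53 and 1.40 (SE 0.94), and Fasn at 1.52 and 1.35 (SE 0.29). None of these differences between pads passed the adjusted threshold. By list, the median effect of adipocyte markers was 0.37 in gonadal and -0.033 in inguinal pads, that of lipolysis and droplet genes 0.39 and 0.065, and that of de novo lipogenesis 0.62 and 0.77. The corresponding medians of macrophage genes were -0.34 and -0.97, and over all genes tested -0.025 and -0.092. Skeletal muscle genes had medians of 0.24 in gonadal and -2.35 in inguinal pads. The part of muscle tissue in the inguinal values was not tested.

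**Figure D5:**
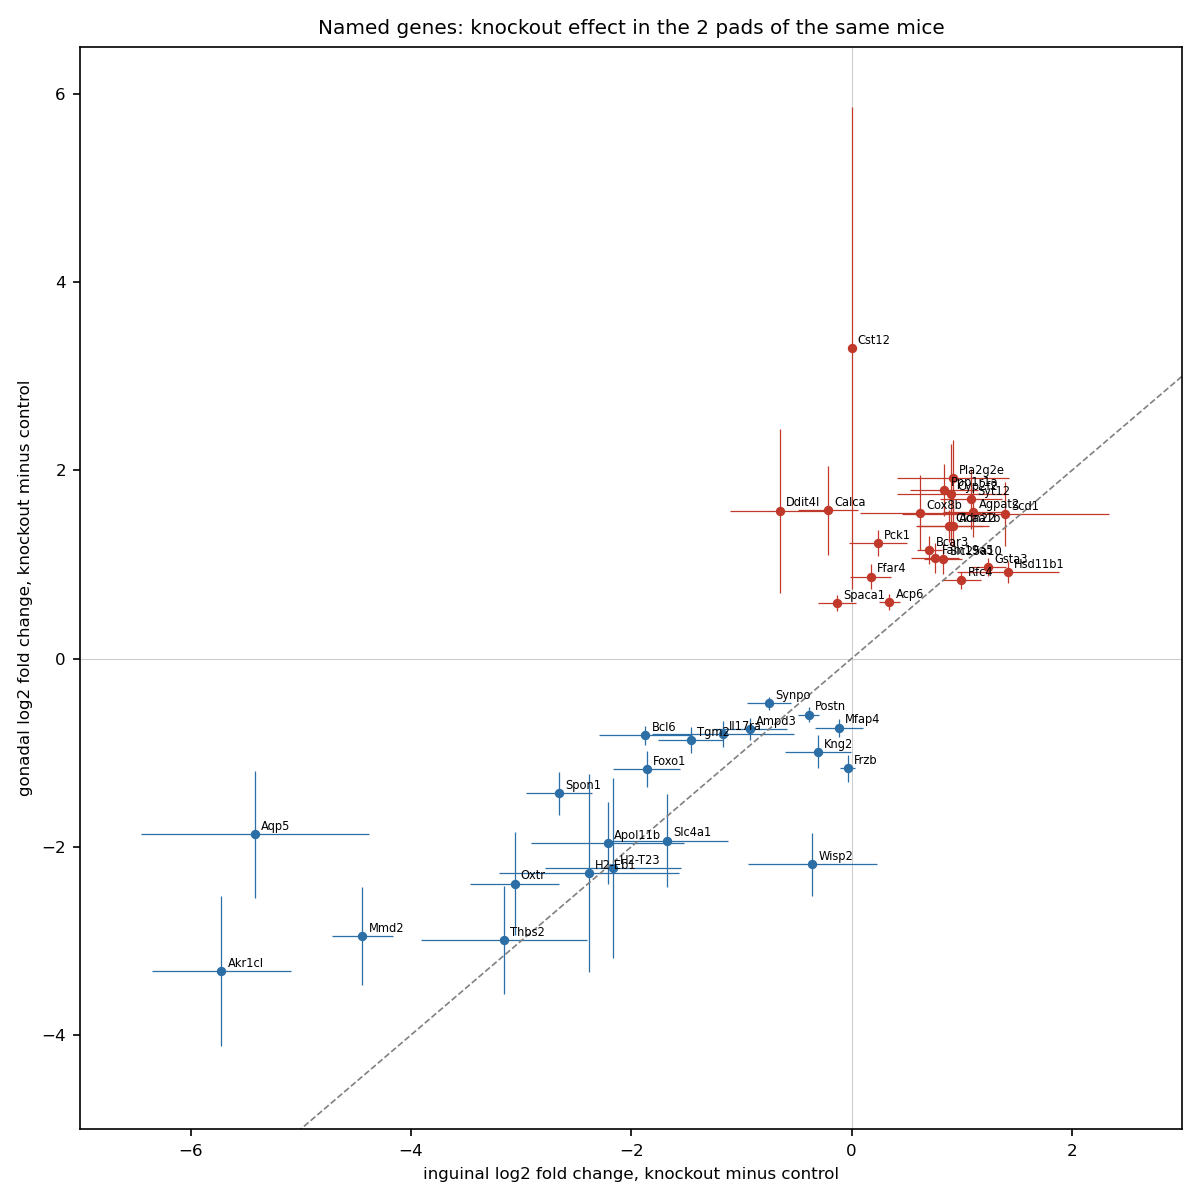
Knockout effect (log2 fold change, bars are SE, n = 3 mice per genotype) of the 43 genes named for smallest p or largest fold in gonadal pads (vertical axis) against inguinal pads of the same mice (horizontal axis). The dashed line marks equal effects: Frzb (-0.036) and Wisp2 (-0.36) lie nearer to 0 on the inguinal axis, and Akr1cl, Mmd2 and Aqp5 lie above the line, with a larger drop in inguinal fat.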

How the data were processed

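The authors deposited a table of FPKM values for 35275 mouse genes in 24 libraries, of which 12 are gonadal. Per the submitters' processing notes, CASAVA, STAR and build mm10 were used. For the counting tool, its strand setting and all versions, the sources used here give nothing. The deposited comparison tables list, for the genes called changed, raw read counts, the authors' group means of scaled read signal, log2 fold changes and p-values, per the file headers. Column names give the genotype, mouse and pad, but not the sample titles, so columns were mapped to groups only.

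Each pad's value is the mean FPKM of its 2 libraries, and log2(FPKM + 0.5) was compared with limma 3.58.1 (trend, two-sided, R 4.3.3) for the 14851 genes with a mean of at least 0.5 FPKM. P-values were adjusted by Benjamini and Hochberg over all genes, with a threshold of 0.05. The fold changes are on the log2(FPKM + 0.5) scale, which understates differences of low genes. Reads were rebuilt as FPKM times length times the library's total, which came out whole in 100% of cases (tolerance 0.001), and edgeR 4.0.16 and DESeq2 1.42.0 were run on their sums per pad. Effects in gonadal and inguinal pads were compared by limma on differences within mice. The limma step was tested on simulated data with 200 of 14851 genes changed in the gonadal comparison. It recovered 18% of genes with 2-fold and 75% with 4-fold changes and called 7 unchanged genes. The changed genes were drawn from those above a minimum read level, and each gene was simulated independently. Figures were drawn with matplotlib 3.10.9 in Python 3.11.15.

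The members and gene lists were chosen with earlier results of these data known. Named genes are the FoxO family, the 12 higher and 12 lower with the smallest p (group mean of at least 1 FPKM), and the 10 higher and 10 lower with the largest fold among those without overlap (group mean of at least 5 FPKM). Unnamed models, pseudogenes, immunoglobulin and T cell receptor segments and male tract genes were left out of these. From each list up to 4 members with the smallest p and members whose role defines it were named. Further members were named with their values in view, for their place in a pathway or because they made up a small count. The table held 748 of the 750 genes on the lists, 7 by another name. No set test was run.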

Additional observations from a re-analysis of the deposited data

How the results depend on the processing

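The adjusted and unadjusted counts, Foxo1, the named genes and the list medians were recomputed under 17 alternatives where each gave a value: other pseudocounts, filters and scalings, count models, libraries as replicates, the male tract level as a covariate, each mouse left out, and the pads low in male tract transcripts (M5 and M9 against M7), the last chosen after seeing the data. The counts of genes without overlap were recomputed under the 4 that change scaling or filter, and the difference between gonadal and inguinal effects under 8. The planned limit of 10 FPKM on the male tract list left no control pad and gave no value. Treating the 6 libraries of a genotype as replicates, which counts each pad more than once, gave 1125 genes at an adjusted p under 0.05, with 1431 higher and 1966 lower at an unadjusted p under 0.05, and DESeq2 gave 310 adjusted calls, against 0 in the limma comparison of pads. Leaving out a mouse gave 0 to 1 adjusted calls (Gm10800, an unnamed gene model, without M10, limma adjusted p = 0.0103). The counts at an unadjusted p under 0.05 then ran from 371 (without M9) to 913 (without M5) higher and from 376 (without M12) to 975 (without M5) lower, with 419 higher without M12, and without M10 422 higher and 424 lower. Without M9 401 were lower. The pads low in male tract transcripts gave 249 higher and 310 lower, where the lone control is assumed to vary like the knockout pads. Foxo1 passed the threshold with libraries as replicates (-1.18) and in DESeq2 (-1.28), and ran from -1.34 to -0.97 with a mouse left out. The male tract median itself turned from 0.46 to -2.03 without M12, -0.12 without M6 and -0.98 in the low male tract pads. Other list medians changed sign as well: in those pads the medians were 0.12 for the FoxO family, 0.12 for FoxO targets, 0.40 for B cell and 0.30 for neutrophil and mast cell genes, with 0.13 for Foxo4 and 0.18 for Foxo3. With a mouse left out, the glutathione and antioxidant median ran from -0.072 to 0.031 (without M7), that of mitochondrial shape genes from -0.021 (without M12) to 0.094, Foxo4 from -0.24 to 0.0028 (without M6) and Foxo3 from -0.16 to 0.045 (without M9), with 0.035 without M10 and 0.039 without M6. Without M6 the medians were 0.034 for B cell and 0.092 for neutrophil and mast cell genes, and without M9 -0.081 for adipokines. Medians of insulin signalling, FoxO targets, autophagy, sterol, cell cycle, glucocorticoid and mesothelial genes also took either sign with a mouse left out, within 0.29 of 0 except mesothelial at -0.32. The causes were not tested. Counting each named gene under each alternative, 679 values kept direction and side of the threshold, 75 passed it in the same direction and 6 reversed, and of list medians 703 stayed within the spread, 21 moved and 6 reversed beyond it. The difference between gonadal and inguinal effects had 0 adjusted calls in all 8 alternatives run. No paired analysis was possible because the columns carry mouse numbers that differ between the genotypes and not the replicate numbers of the labels. With 3 pads a genotype, 2-fold differences were mostly missed in the simulation, where 18% were recovered. The simulation held no differences shared by a whole pad, so the rate in the real pads is not known.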

Other observations

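Genes of the H2 complex, the major histocompatibility complex of the mouse, set single mice apart in both pads, and were looked at after their values were seen. In knockout M12, H2-T22 was at 3.86 FPKM in gonadal fat against 22.6 and 23.7 in M5 and M9 and 39.7 to 43.1 in the controls, and in inguinal fat at 5.98 against 32.0 to 71.0 in the 5 other mice. H2-Q5 was listed at 0 in both pads of M12 and at 1.95 to 16.8 in all other pads. H2-Aa was at 29.4 in the gonadal pad of M12, against 159 and 156 in M5 and M9 and 261 to 344 in the controls. The class I gene H2-D1 did not follow, at 1260.3 in the gonadal pad of M12 and 1066 to 2071 in the other gonadal pads. Controls M7 and M10 stood apart in another pair of genes: the pseudogene H2-Ea-ps was listed at 0 in both pads of these mice and at 0.980 to 23.1 in all others, and H2-T10 was at 1.72 to 3.70 in their pads and at 7.57 to 17.7 in all others. The reads of such genes can be divided among similar copies. Whether the mice differ in their H2 alleles was not tested.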
